A study of Mus musculus with 20 samples.

Results

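Sudemycin D6 was compared with vehicle in bone marrow that expressed an induced wild-type U2AF1 transgene, and the effect was followed across all genes and splice junctions. The comparison uses 10 of the 20 mice of the study, 5 that received vehicle (mice 1 to 5) and 5 that received sudemycin D6 (mice 6, 8, 9, 10 and 12), taken by genotype and treatment from the labels. The other 10 mice carried the mutant U2AF1(S34F) and enter only where the drug effects of the genotypes were compared. All mice were congenic wild-type recipients of transplanted donor marrow from U2AF1(WT)/rtTA or U2AF1(S34F)/rtTA doxycycline-inducible transgenic mice, in which doxycycline lets the rtTA protein switch the transgene on. Engraftment lasted more than 6 weeks, all mice then ate chow with 625 ppm doxycycline for 7 days, and drug or vehicle (hydroxypropyl-β-cyclodextrin in phosphate buffer) was infused through a catheter in the jugular vein on the last 5 of those days.

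Several features limit these mice as a model. Donor cells of several animals were pooled before transplantation, so the recipients of a genotype are not independent donors. The recipients were irradiated, and stromal and any surviving blood cells of the recipient are not transgenic. The U2AF1(WT) transgene adds to the endogenous gene in both groups, and a marrow without transgene or without doxycycline was not analysed here. Separate mice are the replicates, and the p-values measure the spread among these 5 mice of each group. Values of single mice are given below in the order 1, 2, 3, 4, 5 for vehicle and 6, 8, 9, 10, 12 for sudemycin D6.

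Sudemycin D6 is a small molecule that binds SF3B1, a subunit of the SF3b complex. SF3b is part of the U2 small nuclear ribonucleoprotein, which recognises the branch point adenosine upstream of the 3′ splice site, while the U2AF heterodimer, with U2AF1 as its small subunit, reads the polypyrimidine tract and the terminal AG. Where branch point recognition fails, the spliceosome can skip the exon that follows, leave the intron in place or use another site, and exons differ in how easily they are lost. Marrow holds maturing neutrophils, monocytes, erythroid and lymphoid precursors and rare stem and progenitor cells, and myeloid cells there express immediate-early and inflammatory genes, whose short-lived transcripts follow signalling quickly.

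Gene counts totalled 41145892 to 53492246 in the vehicle mice and 45019332 to 51335297 in the mice that received sudemycin D6. The deposited counts cover 37620 genes and 554616 junctions, and junction counts were between 0.836 and 1.02 times the gene counts under vehicle (lowest in mouse 3) and between 0.986 and 1.05 under sudemycin D6. No pair of mice within a group had counts that agreed within sampling noise. Marrow identity was checked by lineage genes. The late neutrophil genes, led by *S100a9*, *Ltf* and *Ngp*, summed to between 93118 and 103876 CPM (counts scaled by edgeR to 1e6 per library) under vehicle and between 85014 and 147801 under sudemycin D6, the primary granule genes to between 3332 and 3870 CPM under vehicle and between 3000 and 4237 under sudemycin D6, and the T and NK cell genes to between 157 and 239 CPM under vehicle and between 147 and 269 under sudemycin D6. The treated mice were not alike. Mice 8 and 9 had 17012 and 17191 CPM of *Ltf*, where treated mice 6, 10 and 12 had 9621 to 11330. The scaling factors of edgeR were 0.9321 and 0.8856 in mice 8 and 9 and 1.03 to 1.075 in the other treated mice. The bearing of this difference on single genes was not tested.

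The transcript of the drug target did not pass the test. *Sf3b1* had 700.4 ± 40.2 CPM under vehicle and 735 ± 58 under sudemycin D6 (mean ± SD, n=5), with a log2 fold change of 0.07 (SE 0.09, FDR=0.821) by the quasi-likelihood test of edgeR after Benjamini-Hochberg correction, which gave each FDR below unless another test is named. *U2af1*, whose count does not separate transgene from endogenous transcripts, had 39.3, 36.3, 36.3, 36.9 and 35.5 CPM under vehicle and 41, 44.6, 38.4, 42.3 and 48.7 under sudemycin D6. Vehicle mouse 1 lay above treated mouse 9, so the groups overlapped, and the log2 fold change was 0.22 (SE 0.08, FDR=0.235). Of 26 genes of the SF3b and SF3a complexes, the U2AF family and other branch site factors, only *Sf3b3* passed, where a gene was called at FDR<10%.

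*Sf3b3* (ENSMUSG00000033732, minus strand of chromosome 8, 113334139 to 113370703 in NCBI build 37) encodes a scaffold subunit of the SF3b complex. It had 161, 169, 153, 158 and 156 CPM under vehicle and 255, 221, 187, 280 and 277 under sudemycin D6. All treated mice lay above all vehicle mice, and the log2 fold change was 0.61 (SE 0.11, FDR=0.0136), called also when any 1 mouse was left out. The subunits *Sf3b2* (0.16, FDR=0.611), *Sf3b4* (0.21, FDR=0.448), *Phf5a* (0.24, FDR=0.34) and *U2af2* (0.17, FDR=0.412) were not called, where the first value in brackets is a log2 fold change, as in the paragraphs that follow. The list had a median log2 fold change of 0.08, against 0.0040 over all 14763 genes tested. *Prpf8*, a core spliceosome protein that was placed among the myeloid neoplasm driver genes, had 353 to 452 CPM under vehicle and 465 to 527 under sudemycin D6 without overlap but was not called (log2 fold change 0.29, FDR=0.158).

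Other RNA processing genes held 1 call. Among 22 SR proteins and their kinases, which guide the choice of splice sites, 1 fell, *Clk1*, a kinase of SR proteins, with 490, 379, 515, 467 and 505 CPM under vehicle and 268, 285, 352, 275 and 326 under sudemycin D6. The groups did not overlap and the log2 fold change was −0.64 (SE 0.11, FDR=0.0117). None of 38 hnRNP genes (median log2 fold change 0.01), none of 16 genes of nonsense-mediated decay (−0.01) and none of 8 snoRNA host genes (−0.15) was called in edgeR, and 3, 3 and 3 of them had an unadjusted p under 0.05. Over all 14763 genes tested 3.07% were called, and 1959 had an unadjusted p under 0.05 in edgeR. These are the background for such counts in the lists below.

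Splicing changed in both directions, with more exons skipped than gained. The inclusion level Ψ of a cassette exon is the share of transcripts that hold the exon, from the reads on its 2 inclusion junctions (divided by 2) and on the junction that skips it. Of 25469 cassette exon events tested, 290 (1.14%) were called at FDR<10% with a change in Ψ of more than 1%, 177 of them with lower Ψ (0.695%) and 113 with higher Ψ (0.444%) under sudemycin D6. These events hold 283 exons of 232 genes, and their median |ΔΨ| was 0.0801. The groups did not overlap in 190 of the called events, against 1.97% of all events tested. The count depends on the form of the test and on the junctions used. With annotated junctions only, a setting chosen after seeing the data, it was 123. Limma on Ψ called 89 events (60 lower), and edgeR with an estimated dispersion called 0 (1693 with an unadjusted p under 0.05), where the fit above sets the dispersion to 0 and leaves all spread beyond counting to the quasi-likelihood term.

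The coding exons below are among the named exons and show how they differ in length and in the tract before them. Each is shown 5′ to 3′ on the strand of its gene from NCBI build 37, with the exon in capitals and with 50 intron bases before it and 6 after it in lower case. The windows are chrX:71027631-71027698, minus (*Idh3g*), chr3:8943545-8943627, minus (*Tpd52*), chr10:115974271-115974384, minus (*Cnot2*), chr9:21344236-21344335, plus (*AB124611*), chr3:105967715-105967800, minus (*Chi3l3*), chr1:87588500-87588630, plus (*Sp100*), chr11:51081617-51081739, plus (*Clk4*) and chrX:99268641-99268824, plus (*Nhsl2*). The exons of *Clk4* and *Nhsl2* had higher Ψ under sudemycin D6 and the others had lower Ψ.
Idh3g exon: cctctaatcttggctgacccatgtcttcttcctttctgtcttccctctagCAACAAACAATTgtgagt
Tpd52 exon: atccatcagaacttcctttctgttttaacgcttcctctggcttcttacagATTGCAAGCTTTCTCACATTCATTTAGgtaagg
Cnot2 exon: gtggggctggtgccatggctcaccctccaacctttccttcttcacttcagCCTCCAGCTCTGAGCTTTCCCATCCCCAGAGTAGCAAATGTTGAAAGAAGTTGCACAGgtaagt
AB124611 exon: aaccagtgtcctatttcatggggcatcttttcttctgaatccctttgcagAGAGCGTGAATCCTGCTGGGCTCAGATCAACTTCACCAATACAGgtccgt
Chi3l3 exon: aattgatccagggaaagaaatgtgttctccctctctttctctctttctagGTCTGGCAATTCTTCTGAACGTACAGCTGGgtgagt
Sp100 exon: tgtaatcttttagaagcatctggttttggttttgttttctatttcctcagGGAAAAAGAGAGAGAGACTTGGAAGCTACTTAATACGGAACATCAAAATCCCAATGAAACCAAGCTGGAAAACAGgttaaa
Clk4 exon: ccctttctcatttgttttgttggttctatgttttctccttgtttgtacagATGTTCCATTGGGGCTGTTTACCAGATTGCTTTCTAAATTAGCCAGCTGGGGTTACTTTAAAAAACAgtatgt
Nhsl2 first exon: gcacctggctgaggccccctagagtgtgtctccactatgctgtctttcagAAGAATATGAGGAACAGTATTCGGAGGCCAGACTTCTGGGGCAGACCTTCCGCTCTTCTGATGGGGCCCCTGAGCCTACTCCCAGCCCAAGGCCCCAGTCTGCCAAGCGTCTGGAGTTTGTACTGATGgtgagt

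*Idh3g* encodes a subunit of the mitochondrial isocitrate dehydrogenase of the tricarboxylic acid cycle. Its 12 bp exon (chrX:71027637-71027648) lies between introns of 365 and 194 bp. Ψ was 0.771, 0.754, 0.77, 0.745 and 0.766 under vehicle and 0.608, 0.467, 0.484, 0.588 and 0.457 under sudemycin D6, from 394 to 1386 junction reads per mouse. The vehicle mice lay close together, the treated mice spread more widely, and the groups did not overlap (ΔΨ=−0.241, FDR=2.7e-07). The exon has a length that is a multiple of 3, and the change stayed called when any 1 mouse was left out, with a highest FDR of 6.41e-06.

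*Ythdf3*, a reader of methylated adenosines in mRNA, had the largest fall in Ψ among the named exons, in an exon of 149 bp (chr3:16086967-16087115). The ends of this exon match no annotated coding segment, so it may be noncoding or coding in part. Ψ was 0.755, 0.831, 0.857, 0.892 and 0.832 under vehicle and 0.439, 0.333, 0.314, 0.257 and 0.179 under sudemycin D6 (ΔΨ=−0.529, FDR=0.000738), from 26 to 92 reads per mouse. For the 27 bp exon of *Tpd52*, a vesicle trafficking protein, Ψ was 1, 1, 1, 0.6 and 0.889 against 0.397, 0.321, 0.333, 0.541 and 0.278 (ΔΨ=−0.524, FDR=0.00826, 19 to 81 reads). Vehicle mouse 4 lay below the other vehicle mice of *Tpd52* but above all treated mice.

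*Cnot2* encodes a scaffold subunit of the CCR4-NOT complex, which shortens poly(A) tails. The 58 bp exon between introns of 11754 and 19837 bp had Ψ of 0.469, 0.411, 0.327, 0.805 and 0.416 under vehicle and 0.163, 0.106, 0.182, 0.256 and 0.116 under sudemycin D6 (ΔΨ=−0.321, FDR=0.00358, 47 to 177 reads). Vehicle mouse 4 was high, and without it the FDR was 0.0412. Limma on Ψ did not call this exon of *Cnot2* (FDR=0.297). In the 44 bp exon of *AB124611*, Ψ was 0.675, 0.767, 0.661, 0.644 and 0.83 against 0.484, 0.382, 0.359, 0.524 and 0.32 (ΔΨ=−0.302, FDR=0.00395, 66 to 205 reads). Neither length is a multiple of 3, so that inclusion and skipping put the following exon in different reading frames.

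Other exons whose ends match no annotated coding segment fell as well. For *Tmbim4*, a membrane protein of the BAX inhibitor family, Ψ of a 94 bp exon was 0.846, 0.692, 0.845, 0.853 and 0.884 under vehicle and 0.538, 0.58, 0.487, 0.638 and 0.423 under sudemycin D6 (ΔΨ=−0.291, FDR=0.0101). The related *Tmbim6* had Ψ of 1 in all vehicle mice and 0.917, 0.474, 0.621, 0.843 and 0.619 in the treated mice (ΔΨ=−0.305, FDR=0.073), but this call held in only 2 of 10 fits that left out 1 mouse. A 158 bp exon of *Btbd10* (ΔΨ=−0.226, FDR=0.0653) held in 3 of 10.

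Among the exons with higher Ψ, *Nhsl2*, a relative of the Nance-Horan syndrome gene, had exons of 128 and 193 bp whose skipping is read from the same junction (chrX:99266818-99271501). The first had Ψ of 0.698, 0.641, 0.59, 0.491 and 0.603 under vehicle and 0.91, 0.928, 0.832, 0.851 and 0.909 under sudemycin D6 (ΔΨ=0.281, FDR=4.32e-05), and the second a ΔΨ of 0.226 (FDR=0.000652). These are not independent, since the skipping reads are shared. By limma on Ψ the first was called (FDR=0.045) and the second was not (FDR=0.159). *Arhgap4*, a GTPase activating protein, went from 0.46 to 0.705 (FDR=0.089) and *Apol11b*, an apolipoprotein L, from 0.459 to 0.732 (FDR=0.0838), but these calls held in only 2 and 3 of 10 fits with 1 mouse left out.

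The largest rises were in genes with near copies and are uncertain. *A630001G21Rik*, which lies near *Sp100* in a region with duplicated genes, had 3 overlapping or neighbouring exons with ΔΨ of 0.551, 0.352 and 0.286, all measured against the same skipping junction (chr1:87619962-87633047), which had no reads in treated mice 8, 9, 10 and 12. *H2-T24*, a class I gene of the major histocompatibility complex, had Ψ of 0.186, 0.0757, 0.0643, 0.0714 and 0.11 under vehicle and 0.26, 0.39, 0.392, 0.44 and 0.452 under sudemycin D6 (ΔΨ=0.285, FDR=0.000149) for a 276 bp exon. The groups did not overlap, but reads of these genes can also fit near copies.

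Called exons also lay in genes of the lists drawn up for expression. *Hnrnpl*, an hnRNP that regulates exon inclusion, had a called 70 bp exon whose ends match no annotated coding segment. Its Ψ was 0.0456, 0.0542, 0.0519, 0.0791 and 0.0611 under vehicle and 0.162, 0.11, 0.143, 0.112 and 0.169 under sudemycin D6 (ΔΨ=0.0806, FDR=1.33e-08, 963 to 1778 reads). All treated mice were higher. *Clk4*, a kinase of SR proteins, had a 67 bp exon with Ψ of 0.335, 0.398, 0.248, 0.229 and 0.273 against 0.491, 0.564, 0.557, 0.443 and 0.463 (ΔΨ=0.207, FDR=0.0588), without overlap but called in only 3 of 10 fits that left out 1 mouse. *Pcbp2*, a poly(C)-binding protein, went from 0.54 to 0.47 (FDR=0.0377, 7 of 10). By limma on Ψ the exon of *Hnrnpl* was called (FDR=0.0783), and those of *Clk4* (FDR=0.109) and *Pcbp2* (FDR=0.492) were not.

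*Mdm2*, the ubiquitin ligase that restrains p53, had lower Ψ in 2 exons that share a 3′ splice site and differ in their 5′ splice site. The 85 bp form had Ψ of 0.799, 0.705, 0.657, 0.791 and 0.726 under vehicle and 0.557, 0.581, 0.58, 0.563 and 0.536 under sudemycin D6 (ΔΨ=−0.172, FDR=0.00252), and the 131 bp form had ΔΨ of −0.194 (FDR=0.00885). For *Sp100*, a nuclear body protein induced by interferon, Ψ was 0.838, 0.839, 0.853, 0.811 and 0.829 against 0.803, 0.69, 0.748, 0.766 and 0.761 (ΔΨ=−0.0806, FDR=0.00401). *Pecam1*, an adhesion molecule of leukocytes, platelets and endothelium, had a ΔΨ of −0.21 in a 57 bp coding exon (FDR=0.0774, 4 of 10 fits). By limma on Ψ the 85 bp form of *Mdm2* was called (FDR=0.0674). The 131 bp form (FDR=0.161) and the exons of *Sp100* (FDR=0.225) and *Pecam1* (FDR=0.194) were not called by limma.

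Deeply covered transcripts of myeloid cells showed small shifts. *Chi3l3*, a chitinase-like protein of neutrophils and macrophages, had 66386 to 99947 reads per mouse on a 30 bp exon, and Ψ was 0.993, 0.99, 0.993, 0.995 and 0.99 under vehicle and 0.967, 0.974, 0.955, 0.958 and 0.972 under sudemycin D6 (ΔΨ=−0.0267, FDR=0.00825). *Ctss*, the lysosomal protease cathepsin S, had ΔΨ of −0.019 (FDR=0.0364) and −0.0279 (FDR=0.0469) for 2 forms of an exon whose 3′ splice sites differ. The *Ctss* calls held in 8 and 6 of 10 fits with 1 mouse left out. An 86 bp exon of *Slfn4* had ΔΨ of −0.0558 (FDR=0.0118, 1982 to 5175 reads). By limma on Ψ the exon of *Chi3l3* was called (FDR=0.0802). Those of *Ctss* (FDR=0.27 and 0.26) and *Slfn4* (FDR=0.208) were not called by limma.

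**Figure D1:**
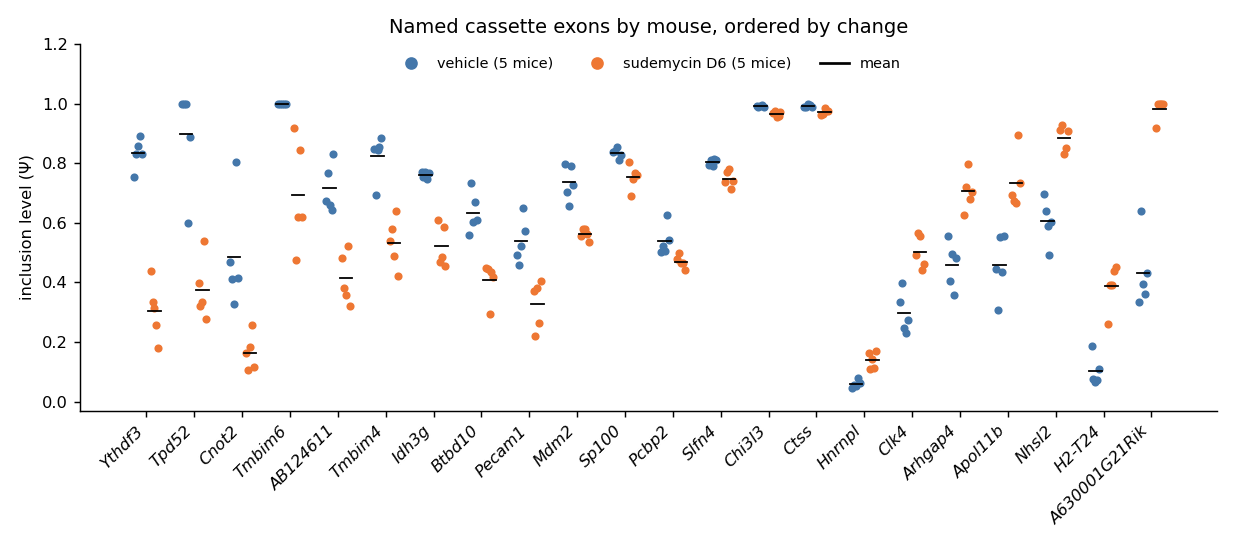
Inclusion level Ψ (y axis, 0 to 1) of the named cassette exons in each of 5 vehicle and 5 sudemycin D6 mice, ordered by change, with 1 exon per gene (the one with the largest change, or, in genes of the lists, the one with the smallest p). Points are mice and bars are group means, and the fall is largest in *Ythdf3* (ΔΨ=−0.529) and the rise in *A630001G21Rik* (ΔΨ=0.551).

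The called exons were also described by features of length and sequence. The 172 exons with lower Ψ had a median length of 84.5 bp, and 34.3% of them were 60 bp or shorter, against 15.3% of the 111 exons with higher Ψ and 12.5% of all 20685 exons tested. Their upstream and downstream introns had medians of 4596 and 5266 bp, where exons with higher Ψ had 1452 and 1456 bp and all tested exons 1970 and 1792 bp. Where an exon had several events, the introns of called exons are those of the event with the smallest p. For all tested exons they are those of the event with the most reads, so the intron lengths were picked by different rules. These are descriptions without a test.

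Splice sites were scored against annotated junctions with at least 100 reads over the 10 mice, in bits, where a higher score is closer to the common sequence. Exons with higher Ψ had the lower scores, with medians of 7.12 bits at the 5′ splice site and 8.19 at the 3′ splice site, against 8.03 and 9.21 over all tested exons. Exons with lower Ψ had 8.09 and 9.53. The share of pyrimidines in the tract was 72.2% in exons with higher Ψ and 77.8% in both other sets. The letters CTNAC, a simple form of the branch point, stood 16 to 50 bases before 16.3% of exons with lower Ψ, 25.2% of those with higher Ψ and 19.6% of all. A match is a description of the sequence and not a mapped branch point.

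The share of exons that keep the reading frame was similar in both directions. Of the coding exons with lower Ψ, 68 of 126 (54.0%) had a length that is a multiple of 3, as did 45 of 83 (54.2%) with higher Ψ, against 40% of all tested coding exons. The median GC content was 47.8%, 50% and 49.6% in exons with lower Ψ, higher Ψ and in all tested exons.

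**Figure D2:**
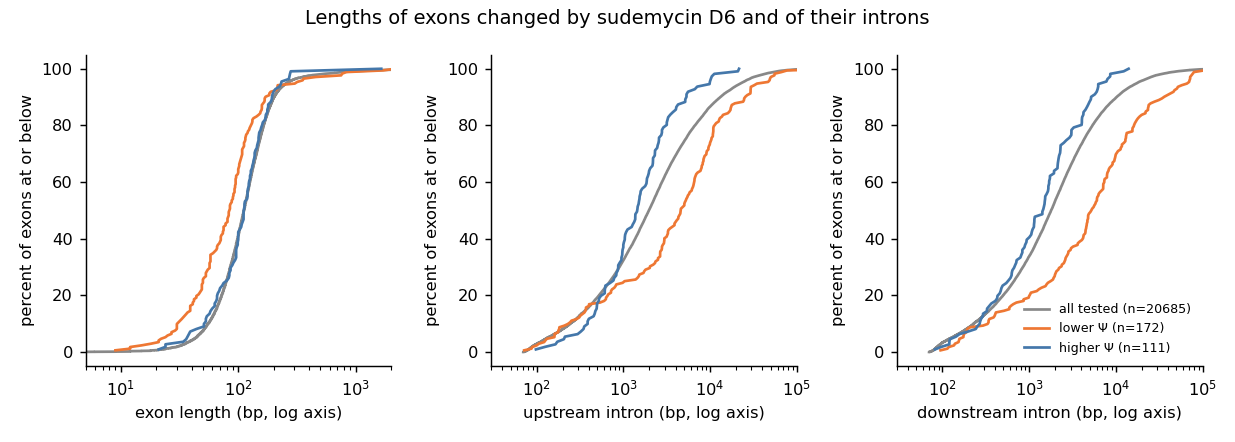
Cumulative share of exons (y axis, percent at or below the length) by exon length, upstream intron length and downstream intron length (x axes, bp, log scale), for the 172 exons with lower Ψ, the 111 with higher Ψ and all 20685 tested. The curve of exons with lower Ψ runs to the left of all tested exons for exon length and to the right for both introns.

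Other kinds of event were tested on their own. Of 2522 alternative 3′ splice sites 5 were called (0.198%), 4 of them toward the shorter exon (0.159%) and 1 toward the longer (0.0397%). *Ino80d*, a subunit of the INO80 chromatin remodelling complex, had sites 91 bp apart, and the share of the longer exon was 0.616, 0.636, 0.678, 0.626 and 0.696 under vehicle and 0.379, 0.442, 0.394, 0.466 and 0.405 under sudemycin D6 (ΔΨ=−0.233, FDR=0.00144, 233 to 358 reads). *Glyr1*, a nucleosome-binding factor, had sites 18 bp apart with 0.8, 0.696, 0.757, 0.693 and 0.782 against 0.689, 0.498, 0.619, 0.663 and 0.633 (ΔΨ=−0.125, FDR=0.0703). Neither pair of groups overlapped. The other named event, in *A630001G21Rik*, had mice without reads and is not described.

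Of 1533 alternative 5′ splice sites 2 were called (0.13%), 1 lower and 1 higher (0.0652% each), in *Arhgef18*, a guanine nucleotide exchange factor (ΔΨ=0.278, FDR=0.0348), and *Cdk11b*, a kinase linked to splicing and the cell cycle (ΔΨ=−0.134, FDR=0.0348), and the groups overlapped in both. Of 1358 pairs of mutually exclusive exons 11 were called (0.81%), and the share of the 5′-most exon was lower in 9 (0.663%) and higher in 2 (0.147%). The groups did not overlap in 10 of the 11, against 1.91% of all pairs tested. *Rab6a*, a GTPase of Golgi transport with a duplicated exon, had 0.364, 0.324, 0.304, 0.337 and 0.296 under vehicle and 0.165, 0.179, 0.196, 0.146 and 0.131 under sudemycin D6 for the first exon of the pair (ΔΨ=−0.162, FDR=0.000376, 1502 to 2420 reads), without overlap. A pair assigned to *Gp49a* and *Lilrb4*, receptors of myeloid cells that are near copies of each other, had ΔΨ of −0.202 (FDR=0.0137) and a second pair −0.118 (FDR=0.0686), which are uncertain for that reason.

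Shares of junction classes were compared over mice, where the smallest exact p that 5 against 5 mice allow is 0.00794, so over 9 classes a lone class could not reach an adjusted p under 0.05. Reads on junctions that skip an annotated exon made up 6.13% ± 0.073 of the reads on annotated ends under vehicle and 6.14% ± 0.063 under sudemycin D6 (mean ± SD, n=5, two-sided exact permutation test over all divisions of the mice, adjusted p=0.988 over 9 classes). Annotated junctions held 97.4% of junction reads in both groups, with a range of 97.3% to 97.6% under vehicle and 97.0% to 97.7% under sudemycin D6. GC-AG junctions held 1.16% ± 0.037 and 1.07% ± 0.045 (unadjusted exact p=0.0238, adjusted p=0.214). No class had an adjusted p under 0.05 in the exact test, and 1 had an unadjusted p under it. Retained introns were not analysed here.

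In expression, 174 genes rose (1.18%) and 279 fell (1.89%) of the 14763 tested, 453 in all, while 1 model of 20 mice called 549 higher and 523 lower. The groups did not overlap in 346 of the called genes, against 4.21% of all tested. By size, 67 rose and 85 fell by more than 1 on the log2 scale. Without vehicle mouse 1 the count was 191 and without vehicle mouse 2 it was 730, so the count depends on single mice, and DESeq2 called 819. Where a call held in 5 or fewer of the 10 fits that left out 1 mouse, that number is given beside it. Bulk marrow was sequenced, in which fewer cells of a type and less RNA per cell cannot be told apart. The lists with most falls were those of immediate-early, inflammatory and rare lineage genes. The lists were chosen with earlier results of these data known. Their counts and medians beside those of all genes are therefore descriptions and not tests. Each count of falls or rises in a list stands beside the 1.89% and 1.18% of all genes, and a call or 2 in a small list is no result about that list.

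**Figure D3:**
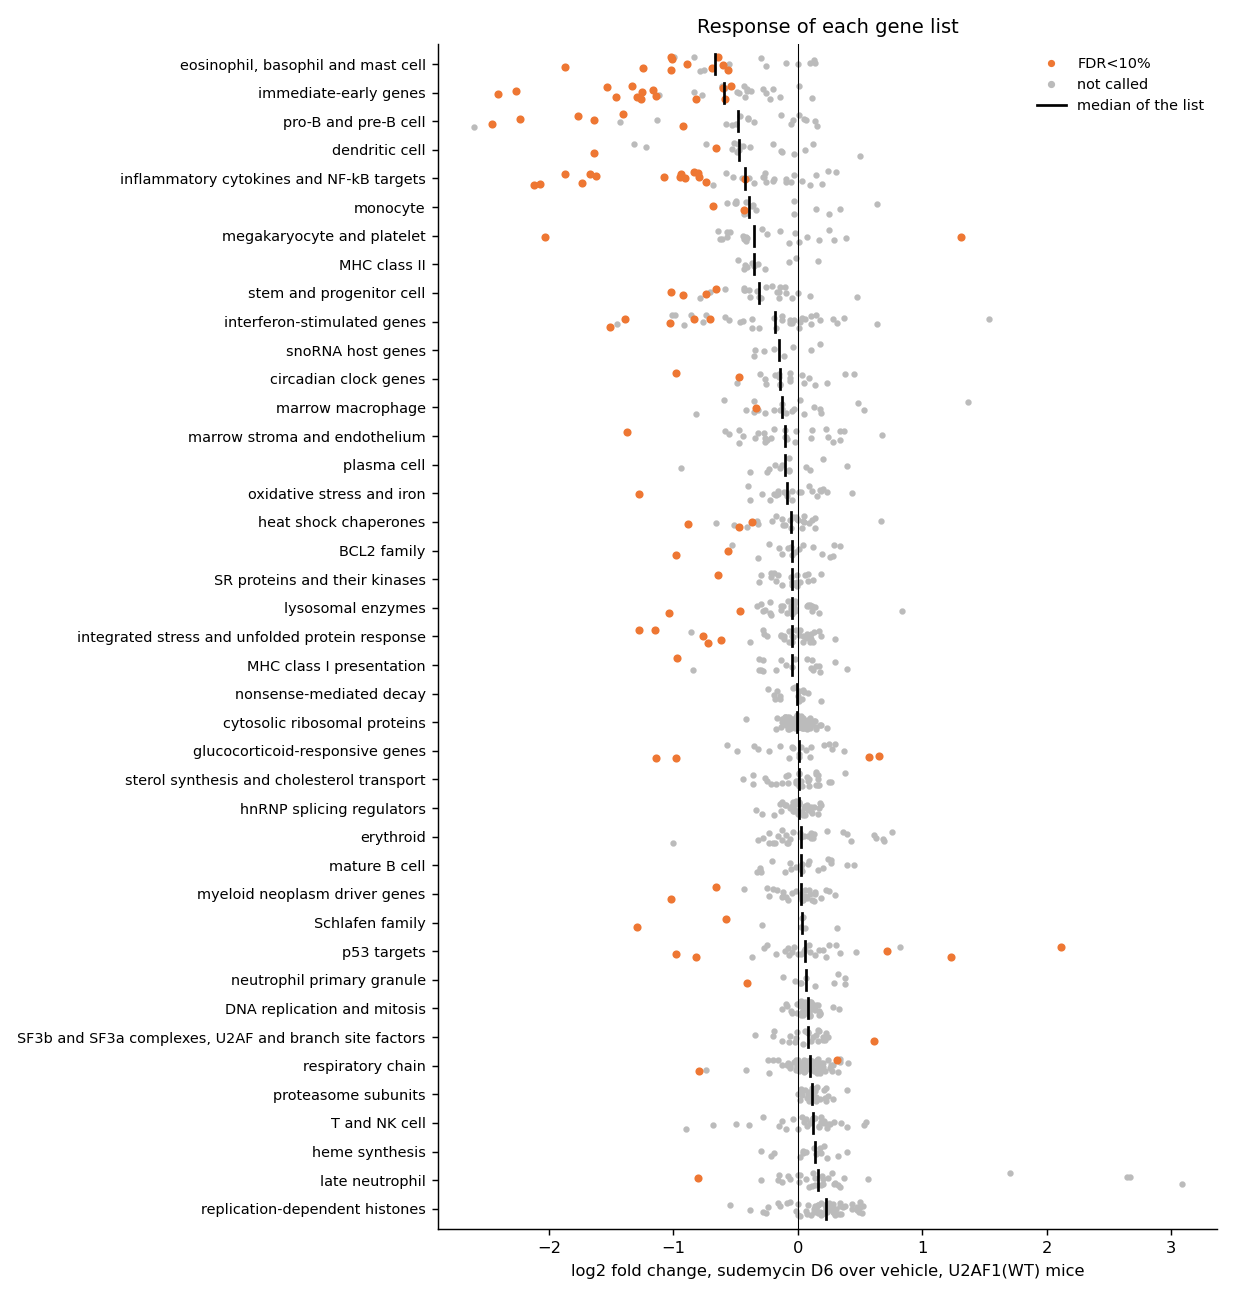
Log2 fold change of sudemycin D6 over vehicle (x axis) for each gene of the 41 lists (rows, ordered by median), where each point is a gene, orange points were called at FDR<10% and bars are medians. The medians of eosinophil, basophil and mast cell genes (−0.67) and of immediate-early genes (−0.60) are lowest and that of replication-dependent histones (0.22) is highest.

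Immediate-early genes encode transcription factors and regulators that are induced within minutes of a signal. Of 34 tested, 14 fell, none rose, and 32 had a log2 fold change below 0, with a median of −0.60 against 0.0040 over all genes, of which 49.2% were below 0. *Fos*, a subunit of the AP-1 transcription factor (ENSMUSG00000021250, plus strand of chromosome 12, 86814840 to 86818223 in build 37), had 1153, 543, 1115, 1203 and 979 CPM under vehicle and 402, 350, 407, 425 and 396 under sudemycin D6. Vehicle mouse 2 was the lowest of its group but lay above all treated mice, and the treated mice lay within a narrow range. The log2 fold change was −1.33 (SE 0.18, FDR=0.00217).

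*Atf3*, a transcription factor of the stress response, had 99.6, 61.6, 60, 60.6 and 68.6 CPM under vehicle and 12, 14.8, 17, 13.7 and 8.17 under sudemycin D6. The groups were far apart, with a log2 fold change of −2.41 (SE 0.20, FDR=6.07e-05). *Egr1*, a zinc finger factor, went from 172, 66.1, 161, 235 and 179 to 35, 23, 33.1, 36.6 and 41.4 CPM (−2.27, FDR=0.00273). *Fosb*, another AP-1 subunit, had 90.6, 43.3, 89.8, 94.1 and 62.1 against 29.6, 27.1, 22.5, 31.9 and 20.1 CPM (−1.53, FDR=0.00273). In each of these genes, as in *Fos*, the groups did not overlap.

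*Dusp1*, a phosphatase that shuts off MAP kinases, had 770, 448, 1013, 1022 and 629 CPM under vehicle and 396, 340, 382, 322 and 321 under sudemycin D6 (−1.14, FDR=0.0105). The kinase gene *Plk3* had 60 to 126 CPM under vehicle and 33.9 to 49.5 under sudemycin D6 (−1.25, FDR=0.0045). The remaining falls were *Plk2* (−1.29, FDR=0.00465), the nuclear receptor *Nr4a2* (−1.47, FDR=0.0385), *Maff* (−1.26, FDR=0.069, 4 of 10), *Egr2* (−1.17, FDR=0.0576, 5 of 10), *Btg2* (−0.82, FDR=0.0307), *Jun* (−0.60, FDR=0.0688, 2 of 10), *Klf6* (−0.59, FDR=0.029) and *Ier3* (−0.54, FDR=0.0136). The related *Junb* (−0.38, FDR=0.361), *Nr4a1* (−0.43, FDR=0.316), *Myc* (−0.20, FDR=0.845) and *Zfp36* (−0.48, FDR=0.191) were not called. Summed over the list the level was between 4894 and 9754 CPM under vehicle and between 4196 and 5323 under sudemycin D6. Vehicle mouse 2 was lowest for *Fos*, *Fosb*, *Egr1*, *Dusp1* and *Plk3*.

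**Figure D4:**
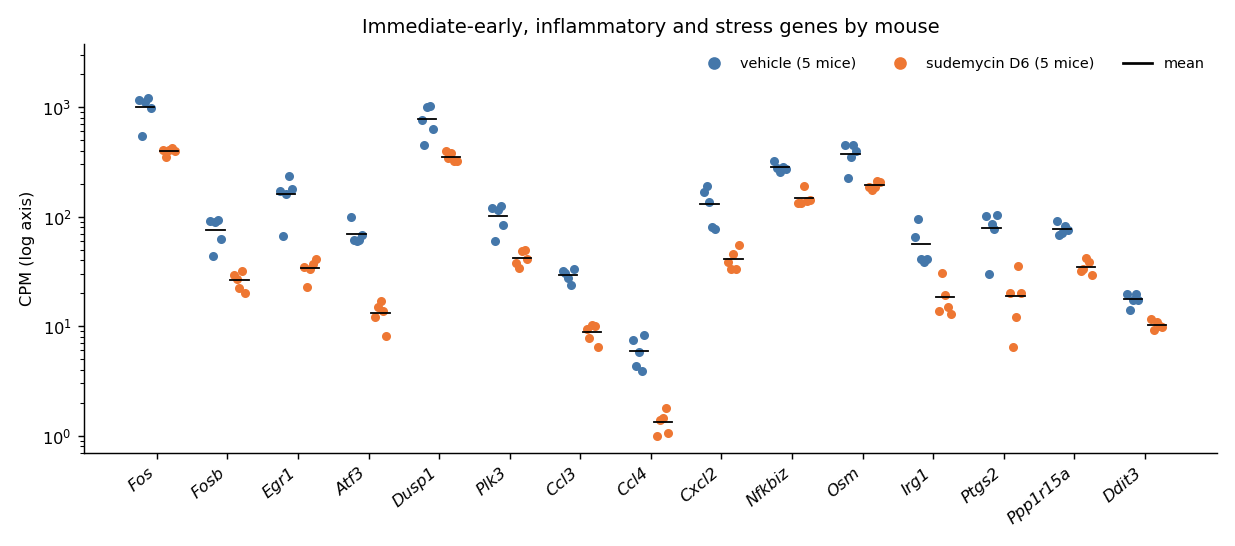
CPM (y axis, log scale) of immediate-early, inflammatory and stress genes in each of 5 vehicle and 5 sudemycin D6 mice, where points are mice and bars are group means. Groups do not overlap except in *Ptgs2*, and the log2 fold changes run from −2.41 in *Atf3* to −0.76 in *Ddit3*.

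The promoters of these genes were searched for motifs, which the choice of the list did not use. RefSeq sequences (GRCm38.p6, from 250 bases before to 50 bases after the start) were at hand for 27 of the 34 tested genes and 13 of the 14 that fell. The letters TGACG, the core of the site bound by CREB and ATF factors, were found on either strand in 18 of the 27 and in 10 of the 13, against 23% of all 27025 genes with a promoter (20.8% of all promoters). The full palindrome TGACGTCA, which holds TGACG on both strands, was in 4 of the 27 and in 4 of the 13 (*Btg2*, *Dusp1*, *Maff* and *Plk2*), against 2.03% of all genes. Of the 27, 6 held an NF-kB site (5.14% of all genes), 3 a CArG box, the site of serum response factor (1.81%), and 1 the AP-1 site TGANTCA (8.97%). A match shows the letters and not binding. The 150 bases before the start are shown for *Fos*, *Fosb* and *Dusp1*, and for *Ppp1r15a* and *Cxcl2*, which are described next, with TGACG or TGACGTCA on either strand in capitals and, for *Cxcl2*, the NF-kB site.
Fos promoter, chr12:85473740-85473889, plus strand: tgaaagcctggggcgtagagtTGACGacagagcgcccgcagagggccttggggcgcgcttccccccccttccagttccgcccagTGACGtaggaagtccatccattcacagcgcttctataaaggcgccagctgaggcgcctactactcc
Fosb promoter, chr7:19310046-19310195, minus strand: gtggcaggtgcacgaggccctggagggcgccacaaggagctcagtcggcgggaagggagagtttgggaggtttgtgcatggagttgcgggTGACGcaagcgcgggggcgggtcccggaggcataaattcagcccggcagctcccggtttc
Dusp1 promoter, chr17:26508473-26508622, minus strand: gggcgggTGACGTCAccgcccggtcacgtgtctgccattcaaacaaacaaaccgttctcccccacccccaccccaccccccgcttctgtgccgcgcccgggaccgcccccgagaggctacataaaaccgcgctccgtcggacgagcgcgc
Ppp1r15a promoter, chr7:45526269-45526418, minus strand: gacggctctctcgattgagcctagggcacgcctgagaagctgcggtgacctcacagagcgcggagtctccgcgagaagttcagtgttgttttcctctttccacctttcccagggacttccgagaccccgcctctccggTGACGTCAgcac
Cxcl2 promoter, chr5:90903749-90903898, plus strand: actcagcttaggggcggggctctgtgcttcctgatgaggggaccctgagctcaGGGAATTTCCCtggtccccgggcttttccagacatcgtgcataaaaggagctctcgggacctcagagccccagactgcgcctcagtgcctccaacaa

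Inflammatory cytokines and targets of NF-kB fell too. Of 37 tested, 15 fell and none rose, with a median log2 fold change of −0.42 and 31 below 0. *Ccl3*, a chemokine of myeloid cells, had 32.2, 30.5, 27.3, 23.7 and 33.2 CPM under vehicle and 9.46, 7.74, 10.3, 10.1 and 6.49 under sudemycin D6 (−1.73, FDR=6.07e-05). The related *Ccl4* had 7.48, 4.32, 5.75, 3.87 and 8.37 against 0.995, 1.38, 1.46, 1.8 and 1.06 CPM (−2.12, FDR=0.00101). For *Cxcl2*, a chemokine that attracts neutrophils, the values were 169, 190, 137, 80.7 and 77.5 and 38.8, 33.3, 45.3, 33 and 54.5 CPM (−1.67, FDR=0.00804). None of these groups overlapped.

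*Nfkbiz*, a nuclear cofactor of NF-kB, went from 320, 277, 257, 282 and 273 to 132, 133, 190, 138 and 142 CPM (−0.94, FDR=0.00103), and *Osm*, the cytokine oncostatin M, from 451, 225, 348, 455 and 395 to 188, 175, 188, 210 and 208 (−0.95, FDR=0.0102). *Irg1*, which makes itaconate in activated myeloid cells, had 38.3 to 95.6 CPM under vehicle and 12.8 to 30.5 under sudemycin D6 (−1.62, FDR=0.0305), without overlap. *Ptgs2*, the inducible cyclooxygenase, had 101, 29.8, 86, 77 and 104 CPM against 20.1, 6.4, 12.1, 35.5 and 19.9 (−2.08, FDR=0.0576). The groups of *Ptgs2* overlapped in vehicle mouse 2 and treated mouse 10, and the call held in 3 of 10 fits that left out 1 mouse. *Il1b*, interleukin 1 beta, overlapped as well, with 372 to 611 CPM under vehicle and 155 to 399 under sudemycin D6 (−0.90, FDR=0.0927, 3 of 10).

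Further falls were *Tnfaip3*, an inhibitor of NF-kB signalling (−0.84, FDR=0.0166), the receptors *Clec4e* (−0.80, FDR=0.0186), *Trem1* (−0.80, FDR=0.0282) and *Tlr2* (−0.42, FDR=0.0296), *Il6* (−1.87, FDR=0.0525, 5 of 10), *Ccl2* (−1.08, FDR=0.0988, 1 of 10) and *Ccl6* (−0.74, FDR=0.0982, 2 of 10). *Tnf* (−0.25, FDR=0.415), *Nfkbia* (−0.27, FDR=0.39) and *Nfkb1* (−0.03, FDR=0.928) were not called. The NF-kB consensus site was in 13 of 28 promoters of the list (46.4%) and 4 of the 10 that fell (40%, *Cxcl2*, *Il6*, *Tlr2* and *Tnfaip3*), against 5.14% of all genes with a promoter. Targets of NF-kB were put in this list by choice, so its excess over all genes is no result about the drug. The list summed to between 3904 and 4563 CPM under vehicle and between 2729 and 3129 under sudemycin D6, with no overlap.

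Of 18 monocyte genes tested, 2 fell, *Fn1* (−0.68, FDR=0.0186) and *Mpeg1* (−0.43, FDR=0.0583, 4 of 10), 14 had a log2 fold change below 0, and the list summed to between 4617 and 6076 CPM under vehicle and between 3770 and 4469 under sudemycin D6, without *Fn1* to between 3403 and 4362 and between 3037 and 3377. In edgeR 13 of the 18 had an unadjusted p under 0.05, as had 1959 of all 14763 genes tested. *F13a1* had 587 to 943 CPM under vehicle and 408 to 686 under sudemycin D6 and was not called (−0.57, FDR=0.106). *Ly6c2*, a surface antigen of inflammatory monocytes, was at 527 to 692 CPM under vehicle and 422 to 829 under sudemycin D6 (0.15, FDR=0.785). Of 23 marrow macrophage genes 1 fell, *Emr1*, which encodes F4/80 (−0.33, FDR=0.0871, 2 of 10), with a sum of between 727 and 787 CPM under vehicle and between 694 and 796 under sudemycin D6. Late neutrophil genes had a median of 0.16 and 1 fall, *Trem1*, among 32. The part of these cell types in the fall of inflammatory genes was not tested.

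Stress genes fell in part. Of 36 genes of the integrated stress and unfolded protein responses, which adjust translation and protein folding, 5 fell and none rose, while the median was −0.05. *Ppp1r15a*, the phosphatase subunit that reverses the integrated stress response, had 92.1, 68.3, 70.2, 82.7 and 74.8 CPM under vehicle and 31.6, 33.3, 41.9, 38.7 and 29.6 under sudemycin D6 (−1.15, FDR=0.000308). *Slc7a11*, a cystine transporter, had 96.3, 49.6, 90.1, 80.2 and 102 against 41.7, 27.8, 42.3, 31.6 and 29.4 CPM (−1.27, FDR=0.00417). The transcription factor *Ddit3*, also called CHOP, fell from 17.6 ± 2.4 to 10.3 ± 0.913 CPM (−0.76, FDR=0.00543), and *Atf4* (−0.62, FDR=0.0166) and the chaperone *Dnajb9* (−0.73, FDR=0.00418) fell too. None of these groups overlapped.

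Among 28 heat shock chaperones 3 fell, the J-domain cochaperones *Dnajb4* (−0.88, FDR=0.0136), *Dnaja1* (−0.47, FDR=0.0155) and *Dnajb1* (−0.37, FDR=0.0583, 4 of 10), and *Hspa8*, the constitutive HSP70, was not called (−0.21, FDR=0.55). Of 25 genes of oxidative stress and iron only *Slc7a11* was called. Among 19 BCL2 family genes, which set the threshold of apoptosis, 2 fell, *Pmaip1*, which encodes NOXA, from 57.5, 51.1, 55.1, 47.8 and 45.2 to 19.5, 29.5, 34, 21.4 and 26.1 CPM (−0.98, FDR=0.00329) and *Bcl2l11*, which encodes BIM, at −0.56, FDR=0.031. Both products promote cell death. *Mcl1*, which opposes it, had 709 to 996 CPM under vehicle and 607 to 707 under sudemycin D6 and was not called (−0.32, FDR=0.188).

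Targets of p53 moved in both directions, 3 up and 2 down of 29, with a median of 0.06. *Eda2r*, a death receptor of the TNF family, had 9, 6, 3, 2 and 1 counts under vehicle and 22, 19, 34, 21 and 27 under sudemycin D6 (2.11, FDR=0.0201). *Zmat3* (0.71, FDR=0.041) and *Phlda3* (1.23, FDR=0.096) rose without overlap, though they were called in only 7 and 2 of 10 fits with 1 mouse left out. *Pmaip1* and *Btg2* fell and belong also to the BCL2 family and immediate-early lists.

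Glucocorticoid-responsive genes were likewise split, 2 up and 2 down of 24, with a median of 0.01. *Fkbp5*, a cochaperone of the glucocorticoid receptor, rose from 81, 75.4, 81.6, 108 and 77.4 to 123, 144, 146, 109 and 142 CPM (0.65, FDR=0.0136), and *Il1r2*, a decoy receptor for interleukin 1, from 64.6, 52.7, 60.1, 69 and 63 to 98.5, 92.3, 106, 83.4 and 79.9 (0.57, FDR=0.0112). Neither overlapped. *Dusp1* and *Per1* (−0.98, FDR=0.0576, 2 of 10), also targets of the receptor, fell. *Per1* and *Nfil3* (−0.47, FDR=0.0271) were the genes called among 21 circadian clock genes.

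Genes of several less abundant lineages fell. Of 22 genes of eosinophils, basophils and mast cells 10 fell, with a median of −0.67 and 18 below 0. *Ear1*, an eosinophil ribonuclease with near copies in the same family, had 47.6, 36.1, 65.4, 33.7 and 46.2 CPM under vehicle and 31.6, 18.1, 21.2, 24.2 and 17.8 under sudemycin D6 (−1.02, FDR=0.0203). *Mcpt8*, a basophil protease, had 50.5, 41.7, 85.9, 68.8 and 70.8 against 32.1, 19.4, 22.7, 39.5 and 19.9 CPM (−1.25, FDR=0.0203). *Prg2*, the major basic protein of eosinophil granules, had 155 to 247 CPM under vehicle and 107 to 162 under sudemycin D6 with overlap (−0.56, FDR=0.0498, 5 of 10 fits).

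The other falls of the list were *Gata2* (−1.02, FDR=0.0362), *Il6* (−1.87, FDR=0.0525, 5 of 10), *Ear6* (−1.01, FDR=0.0525, 4 of 10), *Prg3* (−0.69, FDR=0.0715, 3 of 10), *Fcer1a* (−0.89, FDR=0.0976, 3 of 10) and *Ms4a2* (−0.65, FDR=0.0744, 3 of 10), the last pair encoding subunits of the IgE receptor, and *Ccr3* (−0.60, FDR=0.0999, 2 of 10), the eotaxin receptor. *Il6* and *Gata2* are also expressed outside these lineages. The summed level was between 874 and 1363 CPM under vehicle and between 912 and 1032 under sudemycin D6, and these ranges overlapped. In 2 of the 22 genes all treated mice lay below all vehicle mice, where 4.21% of all genes tested had groups without overlap in either direction.

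Early B lineage genes fell in 6 of 24, with a median of −0.48. *Dntt*, the terminal transferase active during receptor rearrangement, had 12, 7.38, 9.63, 6.83 and 9.03 CPM under vehicle and 3.43, 1.94, 1.55, 5.42 and 1.9 under sudemycin D6 (−1.64, FDR=0.0203), and *Sox4*, a factor that early B cells need, 12.1, 9.48, 10.8, 10.2 and 9.05 against 6.35, 4.18, 4.67, 6.65 and 5.31 (−0.92, FDR=0.00803). Both were called in every fit that left out 1 mouse. *Igll1*, a part of the surrogate light chain, had 2.91, 1.49, 3.4, 2.41 and 2.88 CPM against 0.172, 0.0627, 0.0673, 1.5 and 0.367 (−2.46, FDR=0.0982), and treated mouse 10 reached the vehicle range, and the call held in 2 of 10 fits with 1 mouse left out. Its partner *Vpreb1* (−2.23, FDR=0.06, 4 of 10) overlapped too, and *Arpp21* (−1.77, FDR=0.0841, 4 of 10) and *Myl4* (−1.41, FDR=0.0583, 5 of 10) did not.

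*Rag1*, the recombinase, had 3.53 ± 1.1 and 0.537 ± 0.874 CPM and was not called (−2.60, FDR=0.132). Treated mouse 10 was the highest of its group for *Dntt*, *Sox4* and *Igll1*. The sum of the list was between 187 and 332 CPM under vehicle and between 178 and 329 under sudemycin D6, and these ranges overlapped. Mature B cell genes (0 of 22 called, median 0.03), plasma cell genes (0 of 14, −0.10) and T and NK cell genes (0 of 33, 0.12) had no call in edgeR, and 2, 0 and 3 of them had an unadjusted p under 0.05.

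Stem and progenitor genes fell in 4 of 27, with 24 below 0 and a median of −0.31. *Gata2*, a regulator of stem cells, had 16.9, 12.3, 25, 24.7 and 19 CPM under vehicle and 10.2, 8.88, 6.15, 13.3 and 9.68 under sudemycin D6 (−1.02, FDR=0.0362), with an overlap of vehicle mouse 2 and treated mouse 10. *Flt3*, a cytokine receptor of progenitors, had 18.8 to 27 CPM under vehicle and 12.2 to 17.7 under sudemycin D6 (−0.66, FDR=0.0203), and *Meis1*, a homeobox factor, 7.71 to 11.9 CPM under vehicle and 3.49 to 7.52 under sudemycin D6 (−0.74, FDR=0.0821, 3 of 10). *Sox4* is counted here as well, and *Gata2* and *Flt3* were the genes called among 31 myeloid neoplasm driver genes. The list summed to between 689 and 838 CPM under vehicle and between 525 and 751 under sudemycin D6.

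**Figure D5:**
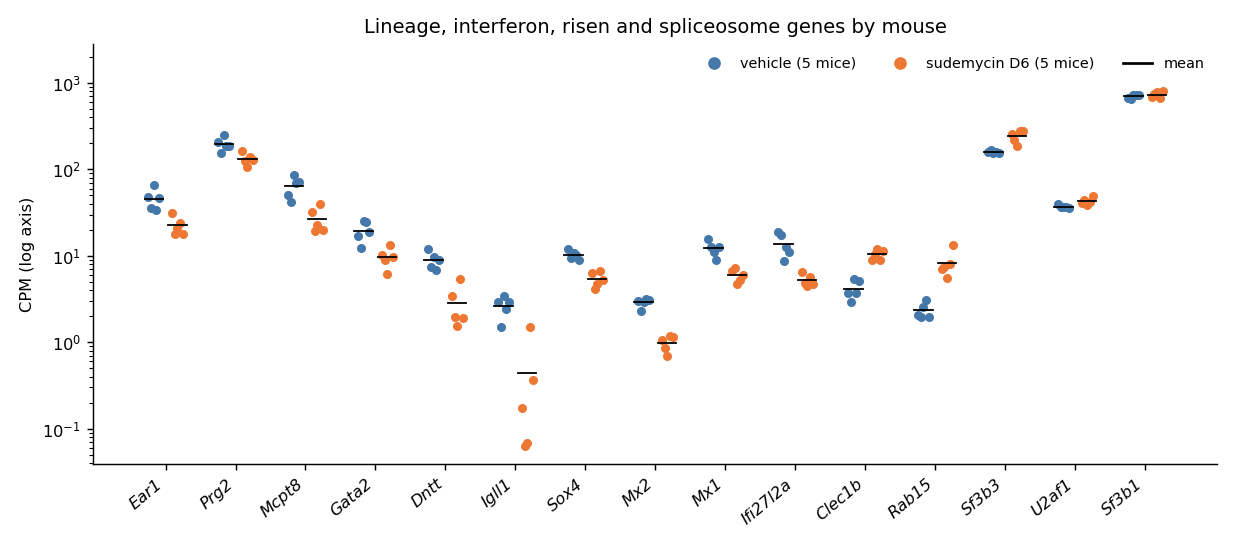
CPM (y axis, log scale) of lineage, interferon-stimulated, risen and spliceosome genes in each of 5 vehicle and 5 sudemycin D6 mice, where points are mice and bars are group means. *Ear1*, *Mcpt8*, *Dntt*, *Sox4*, *Mx2*, *Mx1* and *Ifi27l2a* are lower in all treated mice, *Clec1b*, *Rab15* and *Sf3b3* are higher, and the groups overlap in *Prg2*, *Gata2*, *Igll1*, *U2af1* and *Sf3b1*.

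Dendritic cell genes fell in 2 of 19 (median −0.47), *Dntt* and *Flt3*, which other lists hold too, and *Siglech*, a marker of plasmacytoid dendritic cells, had −1.32, FDR=0.103. Among 24 megakaryocyte and platelet genes, *Thbs1*, a platelet glycoprotein that monocytes also make, fell from 810, 307, 696, 465 and 526 to 209, 75.6, 84.8, 203 and 112 CPM (−2.03, FDR=0.0155) and *Clec1b*, the platelet receptor for podoplanin, rose from 3.7, 2.92, 5.36, 3.72 and 5.07 to 8.9, 10.6, 12, 9.03 and 11.4 (1.31, FDR=0.00217). Neither overlapped. The platelet list had a median of −0.35 with 17 of 24 below 0 and summed to between 1055 and 1641 CPM under vehicle and between 943 and 1038 under sudemycin D6, without its most abundant gene *Plek* to between 689 and 1211 and between 488 and 609.9, with no overlap in either sum. Both sums hold *Thbs1*, whose own fall is large beside these gaps. A sum without *Thbs1* was not made, so the gap is not shown for the other platelet genes. Of 29 genes of marrow stroma and endothelium 1 fell, *Sele*, which encodes E-selectin (−1.37, FDR=0.0924, 3 of 10). Among 32 erythroid genes (median 0.02) and 16 genes of heme synthesis (0.14) edgeR called none, and 1 and 3 had an unadjusted p under 0.05.

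Interferon-stimulated genes fell in 5 of 40, with a median of −0.18 and 27 below 0. *Mx2*, an antiviral GTPase, had 2.98, 2.31, 2.89, 3.19 and 3.07 CPM under vehicle and 1.05, 0.857, 0.695, 1.17 and 1.14 under sudemycin D6 (−1.51, FDR=0.0023). *Ifi27l2a* had 18.8, 17.4, 8.73, 12.8 and 11.2 against 6.49, 4.81, 4.51, 5.63 and 4.7 CPM (−1.39, FDR=0.00329), and *Mx1* had 8.83 to 15.8 CPM under vehicle and 4.71 to 7.19 under sudemycin D6 (−1.03, FDR=0.00785). These groups did not overlap. *Irf7* (−0.84, FDR=0.0521), the transcription factor of the response, and *Oasl1* (−0.71, FDR=0.0845) fell with overlap, in 4 and 2 of 10 fits. *Ifit1* (−1.02, FDR=0.286) and *Isg15* (−0.86, FDR=0.5) were not called. The list summed to between 1714 and 1948 CPM under vehicle and between 1434 and 2856 under sudemycin D6, and the highest treated mouse lay above all vehicle mice, also without *Samd9l*, the most abundant gene of the list (1444 to 1632 CPM under vehicle and 1106 to 2451 under sudemycin D6).

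In related immune families, *H2-Q7*, a nonclassical class I gene with near copies, fell from 57.5, 45, 58, 65.4 and 54.6 to 31.5, 23.6, 15.4, 40.9 and 31.3 CPM (−0.97, FDR=0.0376) as the only call of 21 class I presentation genes, where *B2m* had −0.30, FDR=0.505. None of 11 class II genes was called in edgeR (median −0.35, 2 with an unadjusted p under 0.05), and *Cd74* had 159 to 464 CPM under vehicle and 82.9 to 301 under sudemycin D6. Of 8 Schlafen genes, which restrain growth and virus replication and have near copies, *Slfn5* (52.8, 34.7, 42.2, 33.9 and 40.6 against 19.9, 23.6, 8.1, 14.1 and 17.5 CPM, −1.29, FDR=0.0167) and *Slfn8* (−0.57, FDR=0.0483) fell, while *Slfn2* had 0.03, FDR=0.96 and *Slfn4* had 0.31, FDR=0.39. Among 11 primary granule genes *Srgn*, a proteoglycan that packs granule proteases, fell (−0.41, FDR=0.0362), where *Mpo* had −0.02, FDR=0.972 and *Elane* 0.03, FDR=0.969.

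Housekeeping groups held few calls. None of 80 cytosolic ribosomal protein genes (median −0.0036), 45 genes of DNA replication and mitosis (0.08), 65 replication-dependent histones (0.22) or 33 genes of sterol synthesis (0.01) was called in edgeR, and 2, 1, 5 and 6 of them had an unadjusted p under 0.05. All 34 proteasome subunits had a log2 fold change above 0 and none was called (2 with an unadjusted p under 0.05), with a median of 0.11 and a sum of between 1901 and 2719 CPM under vehicle and between 2196 and 2430 under sudemycin D6. Of 79 respiratory chain genes *Ndufs7* rose (0.32, FDR=0.0954, 2 of 10) and *Atp5s* fell (−0.80, FDR=0.06, 3 of 10). Among 33 lysosomal enzymes 2 fell, *Gla*, alpha-galactosidase, from 32.6, 27.5, 28.3, 26.2 and 28.6 to 13.4, 16.4, 14.4, 12.5 and 13.2 CPM (−1.03, FDR=0.000213) and the protease *Ctsl* (−0.46, FDR=0.0351).

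The largest rises were in genes of mixed kinds. By the rule for named genes, the 12 that rose most were *Fpr3*, *Cacna2d2*, *9930023K05Rik*, *Rab15*, *Dnahc17*, *Sh2d4b*, *Gm12185*, *Rnf152*, *Gm16867*, *Hc*, *Gm10687* and *Prss16*. *Fpr3*, a formyl peptide receptor gene in a cluster of close relatives on chromosome 17, had 2, 0, 0, 0 and 3 counts under vehicle and 93, 144, 110, 171 and 175 under sudemycin D6. All treated mice had reads and the vehicle mice had 3 or fewer (FDR=6.07e-05), and since reads can also fit the related genes, its identity is uncertain.

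*Rab15*, a GTPase of endosomal recycling, had 2.07, 1.96, 2.57, 3.09 and 1.97 CPM under vehicle and 7.02, 7.34, 5.54, 8.04 and 13.3 under sudemycin D6 (1.81, FDR=0.00171). *Prss16*, a thymus-associated serine protease, had 6.16, 11.8, 8.1, 9.83 and 8.03 against 17.8, 25.4, 33.6, 17.6 and 15.6 CPM (1.32, FDR=0.0107). *Cacna2d2*, a calcium channel subunit, had 0.186, 0.332, 0.582, 0.486 and 0.435 and 1.01, 3.85, 1.57, 1.15 and 1.51 CPM (2.07, FDR=0.0193), with treated mouse 8 above the others. These groups did not overlap. *Dnahc17*, an axonemal dynein (1.76, FDR=0.00685), *Sh2d4b* (1.72, FDR=0.00137) and *Hc*, the fifth complement component (1.35, FDR=0.041), also rose.

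The largest falls by the same rule were *Gm20419*, *Rpl10-ps2*, *A530013C23Rik*, *Atf3*, *Gm16858*, *1700006J14Rik*, *RP24-323I5.2*, *Egr1*, *Ccl4*, *Thbs1*, *AW011738* and *Rgs1*. *Gm20419*, a processed transcript on chromosome 17, had 16.6, 10.2, 20.3, 11.8 and 14.6 CPM under vehicle and 3.14, 2.43, 1.77, 2.95 and 2.05 under sudemycin D6 (−2.55, FDR=6.07e-05). *Rgs1*, a regulator of chemokine receptor signalling, had 32.8, 28.8, 40.9, 23 and 37.4 against 11.1, 7.84, 8.19, 10.2 and 8.46 CPM (−1.82, FDR=7.24e-05). Of the others, *Rpl10-ps2* is a pseudogene and *Gm16858* an immunoglobulin variable segment, both with near copies, so that their levels (−2.50, FDR=0.000564 and −2.39, FDR=0.00325) are uncertain.

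Expression and splicing changed together in 12 genes, among them *Atg3*, *Fn1*, *Gm9733*, *Ifrd1*, *Irf7*, *Mndal*, *Nnt*, *Per1*, *Prom1*, *Riok3* and *Stk16*. They make up 5.38% of the 223 genes with a called cassette exon that were tested for expression, against 2.94% called for expression among all 6983 genes with a tested cassette exon.

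The drug effects were then set beside those in U2AF1(S34F) mice, which share no mice with this comparison. Of 444 called genes tested there, 400 (90.1%) changed in the same direction, against 64.7% of 14400 genes tested in both, and 200 were called in both (45% of those called in U2AF1(WT) mice and 12.8% of those called in U2AF1(S34F) mice), where 10.9% of all genes were called in U2AF1(S34F) mice. Of 287 called cassette exon events, 270 (94.1%) kept their direction, against 59.3% of all events, and 117 were called in both, where 1.72% of all events tested in both were called in U2AF1(S34F) mice. The genotypes also differ in *Xist*, with at least 39145 counts per library against at most 8, so a difference between their responses cannot be told apart from that difference.

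The difference of the drug effects was tested in a model of all 20 mice. It was called for 2 of 15392 genes (0.013%), *Atf3*, with a log2 fold change of −2.41 in U2AF1(WT) and −0.01 in U2AF1(S34F) mice (interaction FDR=0.000994), and *Gla*, with −1.03 and 0.11 (FDR=0.000382). With DESeq2 116 genes were called. For cassette exon events the test called 0 of 24758 (1346 with an unadjusted p under 0.05, smallest FDR=0.166), limma also 0 (1113, smallest FDR=0.116), and the fit with the replicate block 1 (FDR=0.0653).

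List by list, immediate-early genes fell in 11 of 34 in U2AF1(S34F) mice (median −0.35) and in 14 of 34 in U2AF1(WT) mice, where *Egr1* fell in both (−2.27 and −1.87). Inflammatory genes fell in 7 and rose in 3 of 37 (median −0.14), where 15 fell in U2AF1(WT) mice. Interferon-stimulated genes fell in 25 of 40 (median −0.61), where 5 fell in U2AF1(WT) mice, and stem and progenitor genes in 12 of 27 (median −0.40), where 4 fell. In U2AF1(S34F) mice 5.91% of genes were called lower. By edgeR, *Atf3* was the 1 gene of these 4 lists with a called interaction, and how many of the DESeq2 calls lie in them was not counted. The log2 fold changes fitted within each genotype were also compared, without the interaction term. The value in U2AF1(S34F) mice was the higher one in 25 of 34 immediate-early and 31 of 37 inflammatory genes, and in 6 of 40 interferon-stimulated genes. The share over all genes was not counted, so these counts have no background beside them. The lists themselves were not tested, so counts that differ between genotypes are not shown to be different responses.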

How the data were processed

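RNA of bone marrow was sequenced as stranded, ribosomal RNA-depleted libraries with paired 126 bp reads. The authors deposited raw counts per gene and raw counts per splice junction for each mouse. The submitters' processing notes name TopHat2 2.0.8, SAMtools and mm9 (NCBI build 37), and the program and strand setting of the gene counts are not given in the sources used here. Of 37620 gene identifiers 37205 had a symbol. Mice were grouped by the labels, and depth is given with the report.

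Genes were tested with edgeR 4.0.16 (filterByExpr, TMM, robust quasi-likelihood fit, prior count of 2, FDR<10%). Splicing events were assembled from junctions with both ends annotated, and kept where they averaged 10 or more reads in a mouse and 1 or more on each isoform. Inclusion and skipping counts were tested in edgeR with a coefficient per mouse and a dispersion of 0, a form chosen in earlier work on these data after others called no event, and called at FDR<10% and |ΔΨ|>1%. The authors' event caller needs reads and was not run. Junction classes were compared by exact permutation. Alternatives used DESeq2 1.42.0 and limma 3.58.1 (R 4.3.3), and other filters, scalings and mice. The gene test and the cassette exon test of drug against vehicle were tried on simulated data, with outcomes not given here. The tests of other event types and of the interaction were not tried in this way. Sequences are from NCBI build 37 or, for promoters, RefSeq GRCm38.p6.

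The members and the 41 gene lists were chosen with earlier results of these data known. Named genes were U2af1, Sf3b1, the 12 largest called rises and falls with at least 1 CPM and no overlap, and in each list up to 4 called members by p, with up to 2 of the best expressed where fewer were called. Named exons were the 8 largest rises and falls with at least 20 reads and no overlap and those in list genes, with up to 3 events of each other type. Other list members were named after their values were seen.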

Additional observations from a re-analysis of the deposited data

Results flagged for a closer look

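In 15 of 173 sets of 5 mice 1 mouse lay far from the others by Dixon's criterion, which chance gives in about 1 of 20 sets. Vehicle mouse 2 had 97.63% of junction reads on annotated junctions (others 97.33% to 97.41%), 0.2283% on unannotated pairs of annotated ends (0.2585% to 0.269%) and 0.4293% on junctions with only the 3′ splice site annotated (0.4953% to 0.5122%). Treated mouse 9 had 0.5141% of junction reads on AT-AC junctions (0.331% to 0.3732%).

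Among genes, vehicle mouse 1 was high for *Atf3* (99.58 CPM, others 59.96 to 68.58) and vehicle mouse 4 for *Fkbp5* (107.6 CPM, others 75.39 to 81.59). Treated mouse 9 was high for *Nfkbiz* (190.5 CPM, others 132.5 to 142.2), treated mouse 10 for *Igll1* (1.504 CPM, others 0.06272 to 0.3667) and treated mouse 8 for *Cacna2d2* (3.847 CPM, others 1.014 to 1.57).

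Among exons, Ψ was low in vehicle mouse 4 for *Tpd52* (0.6, others 0.8889 to 1), in vehicle mouse 2 for *Tmbim4* (0.6923, others 0.8447 to 0.8839) and in treated mouse 9 for *Btbd10* (0.2954, others 0.4182 to 0.4493). In *A630001G21Rik* treated mouse 6 had Ψ of 0.9167, 0.9806 and 0.9756 for the 3 exons, where the other treated mice had 1.

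The drug effect differed between the genotypes, by the interaction term of edgeR, in *Atf3*, whose log2 fold change was higher by 2.384 in U2AF1(S34F) than in U2AF1(WT) mice (FDR=0.000994), and in *Gla*, where it was higher by 1.121 (FDR=0.000382).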

How the results depend on the processing

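Of 453 genes called in edgeR, other settings gave 819 with DESeq2, 243 at FDR under 5%, 152 at a log2 fold change over 1 and 1072 in 1 model of 20 mice, where 549 rose and 523 fell against 174 and 279. Leaving out 1 mouse gave 191 (without vehicle mouse 1) to 730 (without vehicle mouse 2), with 226, 233, 277 and 231 without vehicle mice 5 and 3 and treated mice 8 and 12. Of 290 cassette exon events, limma on Ψ gave 89, an estimated dispersion 0, a change over 10% 116, 1 model of 20 mice 555, and, added after seeing the data, reads in at least 5 mice 468 and annotated junctions only 123. With 1 mouse left out the count was 197 to 305. The 5 alternative 3′ splice sites became 1 with limma, 19 with the older quasi-likelihood fit, 11 with reads in at least 5 mice and 2 (without vehicle mouse 1) to 10 (without vehicle mouse 4) with 1 mouse left out. The 2 alternative 5′ splice sites became 0 with limma (71 with an unadjusted p under 0.05), 1 with reads in at least 5 mice and 0 (without vehicle mouse 4) to 3 (without treated mouse 6). The 11 mutually exclusive pairs ranged from 5 (without treated mouse 10) to 16 (without treated mouse 9). With 9 classes of junction and 5 mice a group, the exact test could not call a lone class under any setting.

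Of 167 named genes and the named exons none changed direction. The named genes include well expressed list members that were not called. These have no call to lose, so the shares of lost gene calls that follow understate the loss among called genes. With 1 mouse left out, 214 of 1670 gene results and 52 of 270 exon results lost their call, as did 27 of 995 and 39 of 230 under the other settings. The losses of exons were not spread evenly over these settings. With the dispersion estimated by edgeR, every named cassette exon lost its call (FDR of 0.58 to 0.88), and limma on Ψ also lost several. The vehicle and treated mice share no replicate numbers, so no pairing applies to their comparison. All vehicle mice have lower numbers than all treated mice, and the labels do not say what the numbers stand for. Any difference in handling that follows the numbers cannot be told apart from the drug. With the replicate block, the interaction was called for 3 genes in place of 2 and for 1 event in place of 0, and DESeq2 called 116 genes. The causes of these differences were not tested. Depth limits exons with few reads, since Ψ of the named exons rests on as few as 19 reads in a mouse.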
